A study of Mus musculus with 12 samples.

Results

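Histone genes were measured in mouse liver as a family of 44 genes, 28 classed here as replication-dependent and 16 as variants. They were chosen by symbol (older symbols beginning with Hist1h to Hist4h, H2af, H3f3 or H1f), from probe sets annotated to 1 gene, with the brightest probe set taken where a gene had several. Of 92 mouse histone genes that the rule covers, 44 had such a probe set, 39 lay only on probe sets shared with other genes, and 9 had none here. The 44 genes stood on 45 probe sets out of 34760, and H2az1 was the gene with more than 1. The family held 8 linker H1 genes, 14 H2A, 11 H2B, 4 H3 and 7 H4 genes, with H2bu1-ps and Macroh2a3 annotated as pseudogenes.

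The study asked how conception by in vitro fertilization (IVF) affects gene expression in the offspring liver, and whether the transcription factor ATF7 takes part. Livers of 12 male mice were compared, 3 in each of 4 groups. The groups were Atf7-/- IVF, Atf7-/- natural mating, WT IVF and WT natural mating, named by genotype and way of conception. All were on a C57BL6/JJmsSlc background, and the labels give an age of 4 weeks, whereas the methods state a younger one. The IVF embryos developed in recipient females of another strain, so the IVF groups also differ from natural mating in superovulation, embryo culture and transfer. Per the methods, no mother or recipient gave more than 1 liver of a group. Atf7-/- pups came from Atf7-/- parents and WT pups from WT parents. After natural mating the mother thus had the genotype of her pups, whereas the IVF pups of both genotypes were carried by ICR recipients. Values are log2 RMA signals, in which 1 unit is a doubling. Probes differ in brightness for the same amount of RNA, so the signals of different probe sets give no order of RNA amounts.

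Core histones (H2A, H2B, H3 and H4) form the protein spool of the nucleosome, and linker H1 binds the DNA where it enters and leaves. Replication-dependent histone genes lie in clusters and are transcribed mainly in S phase. Their mRNAs end in a stem-loop bound by SLBP instead of a poly(A) tail. Variant histones are made throughout the cell cycle from mostly polyadenylated mRNAs and replace the standard proteins at promoters, in silent chromatin or at DNA breaks. ATF7 binds cAMP response elements and brings histone methyltransferases to chromatin. In whole liver RNA, fewer cells in S phase and less histone RNA per cell cannot be told apart.

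RefSeq promoter sequences (GRCm38.p6) were found for 37 of the 44 genes. The 150 bases before the annotated start are shown for some of the genes on which the results turn. Each is given 5′ to 3′ on the gene's own strand. H2bc21 had no RefSeq promoter entry, and the sequence of H1f1 is not shown. Capitals mark CCAAT (or ATTGG on the other strand), TATAAA, the octamer ATTTGCAT (or ATGCAAAT), AAACACA (the H1 box) and TGACGTCA (the cAMP response element).
H2ac4 (chr13:23750938-23751087, + strand): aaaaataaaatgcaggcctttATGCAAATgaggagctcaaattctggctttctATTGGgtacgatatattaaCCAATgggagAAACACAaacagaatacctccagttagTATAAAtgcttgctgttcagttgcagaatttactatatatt
H2aw (chr11:58954535-58954684, + strand): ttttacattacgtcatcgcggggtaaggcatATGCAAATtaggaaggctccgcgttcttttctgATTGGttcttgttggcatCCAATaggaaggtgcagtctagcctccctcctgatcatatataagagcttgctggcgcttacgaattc
H2bc14 (chr13:21721894-21722043, + strand): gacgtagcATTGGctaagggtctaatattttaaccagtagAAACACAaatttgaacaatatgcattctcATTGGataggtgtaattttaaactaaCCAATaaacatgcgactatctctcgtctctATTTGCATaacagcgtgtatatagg
H4c4 (chr13:23581418-23581567, + strand): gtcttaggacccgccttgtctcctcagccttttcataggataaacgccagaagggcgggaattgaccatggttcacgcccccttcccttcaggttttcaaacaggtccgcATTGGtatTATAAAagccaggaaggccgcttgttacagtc
H4c8 (chr13:23530894-23531043, + strand): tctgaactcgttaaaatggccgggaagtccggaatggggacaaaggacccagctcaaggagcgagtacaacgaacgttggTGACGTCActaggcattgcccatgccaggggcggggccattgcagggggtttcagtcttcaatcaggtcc
H1f5 (chr13:21780626-21780775, - strand): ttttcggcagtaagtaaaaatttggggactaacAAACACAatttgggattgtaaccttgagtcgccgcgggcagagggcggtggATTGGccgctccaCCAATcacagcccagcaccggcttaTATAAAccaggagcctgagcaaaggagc

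CCAAT stood in the windows of H2ac4, H2aw, H2bc14, H4c4 and H1f5, while that of H4c8 held TGACGTCA and no other of these blocks. Over the full RefSeq window (250 bases before to 50 after the start), 29 of 37 histone promoters had CCAAT on either strand, against 37.4% of all 32851 promoters. The octamer stood in 9 of 37, of which 5 were H2B and 4 were H2A genes, against 1.74% of all promoters. TATAAA stood in 14 of 23 replication-dependent and 2 of 14 variant promoters, against 13.6% of all. The H1 box AAACACA stood in 4 of 8 H1 promoters and in 9 of all 37, against 7.18% of all. TGACGTCA stood in 1 of 37, that of H4c8 at position -70, against 1.79% of all. Such matches describe letters and do not show binding.

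The arrays of a group correlated with each other at r of 0.980 to 0.990 over all probe sets, and array medians lay between 6.22 and 6.34. Atf7 itself (probe set 10433032) read 5.34 to 5.68 in Atf7-/- IVF, 5.82 to 6.11 in Atf7-/- natural mating, 7.56 to 8.38 in WT IVF and 8.58 to 8.94 in WT natural mating. Its other probe set (10433034) differed far less. That one read 8.28 to 8.43, 8.61 to 8.72, 8.70 to 8.88 and 8.87 to 9.27 in the same order of groups. The hepatocyte list averaged 13.2 to 13.4 on every array, and none of its 7 genes was called in any of the 5 comparisons. Centring each array on its median moved the calls over all probe sets for IVF in WT to 1334 higher and 432 lower, against 989 and 582 without centring.

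Mean signals over the 12 arrays are given as a description of the probe sets. Within the replication-dependent classes they spanned those of H1f2 (9.24) and H1f3 (5.20) for H1, H2ac15 (9.37) and H2ac8 (3.27) for H2A, H2bc4 (11.48) and H2bc22 (5.51) for H2B, H3c4 (5.45) and H3c7 (3.85) for H3, and H4c4 (11.39) and H4c8 (6.01) for H4. The variant probe sets averaged 10.18 for H2az1, 9.68 for Macroh2a1, 9.32 for H2az2, 7.70 for H2ax, 7.33 for H2aj and 7.12 for H2ac1, a testis gene. The others averaged 4.32 for H3f3a, 5.0 for H1f8, 5.34 for H1f6, 5.37 for Macroh2a3, 5.67 for Macroh2a2, 5.85 for H2bc1, 6.17 for H2ab1, 6.53 for H1f7, 6.61 for H2al2a and 6.61 for H1f10. Probe sets that H3f3a or H3f3b shares with another gene were brighter, with means of 9.09 to 10.81. H1f8, H1f6, H1f7, H2al2a, H2ab1 and H2bc1 are known from germ cells. How widely a gene varied over the arrays also differed, with a range of 2.95 for H2bc3, 2.29 for H2ac4 and 2.06 for H2ac15, against 0.27 for H2ab1 and 0.28 for H1f10.

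1 array stood apart from its group in histone signal. In Atf7-/- IVF replicate 2, 21 of the 44 histone genes had their highest value of all 12 arrays, against 7.5% of all probe sets, and 17 of these were replication-dependent. The median of the 28 replication-dependent genes was 6.80, 7.88 and 6.74 in Atf7-/- IVF, 6.50, 6.69 and 7.15 in Atf7-/- natural mating, 7.44, 7.37 and 7.45 in WT IVF, and 6.49, 6.66 and 7.15 in WT natural mating. On this median the WT IVF livers formed a narrow band above all other arrays except Atf7-/- IVF replicate 2. The band did not hold for the 15 replication-dependent genes with a mean signal of at least 7. Their median was 8.61, 8.75 and 8.86 in WT IVF and 8.80, 8.59 and 8.95 in Atf7-/- natural mating. It was 8.44, 9.31 and 8.34 in Atf7-/- IVF and 8.07, 8.04 and 8.54 in WT natural mating. The median of the 16 variants stayed between 6.41 and 6.59 on all 12 arrays, but single variants moved more. The range was 1.03 for H2az1, 1.0 for H2ax and 0.97 for Macroh2a1, against 0.49 for H2az2. Of the 16 variants, 4 were highest on Atf7-/- IVF replicate 2, among them H2az1 (10.86) and H2ax (8.25).

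**Figure D1:**
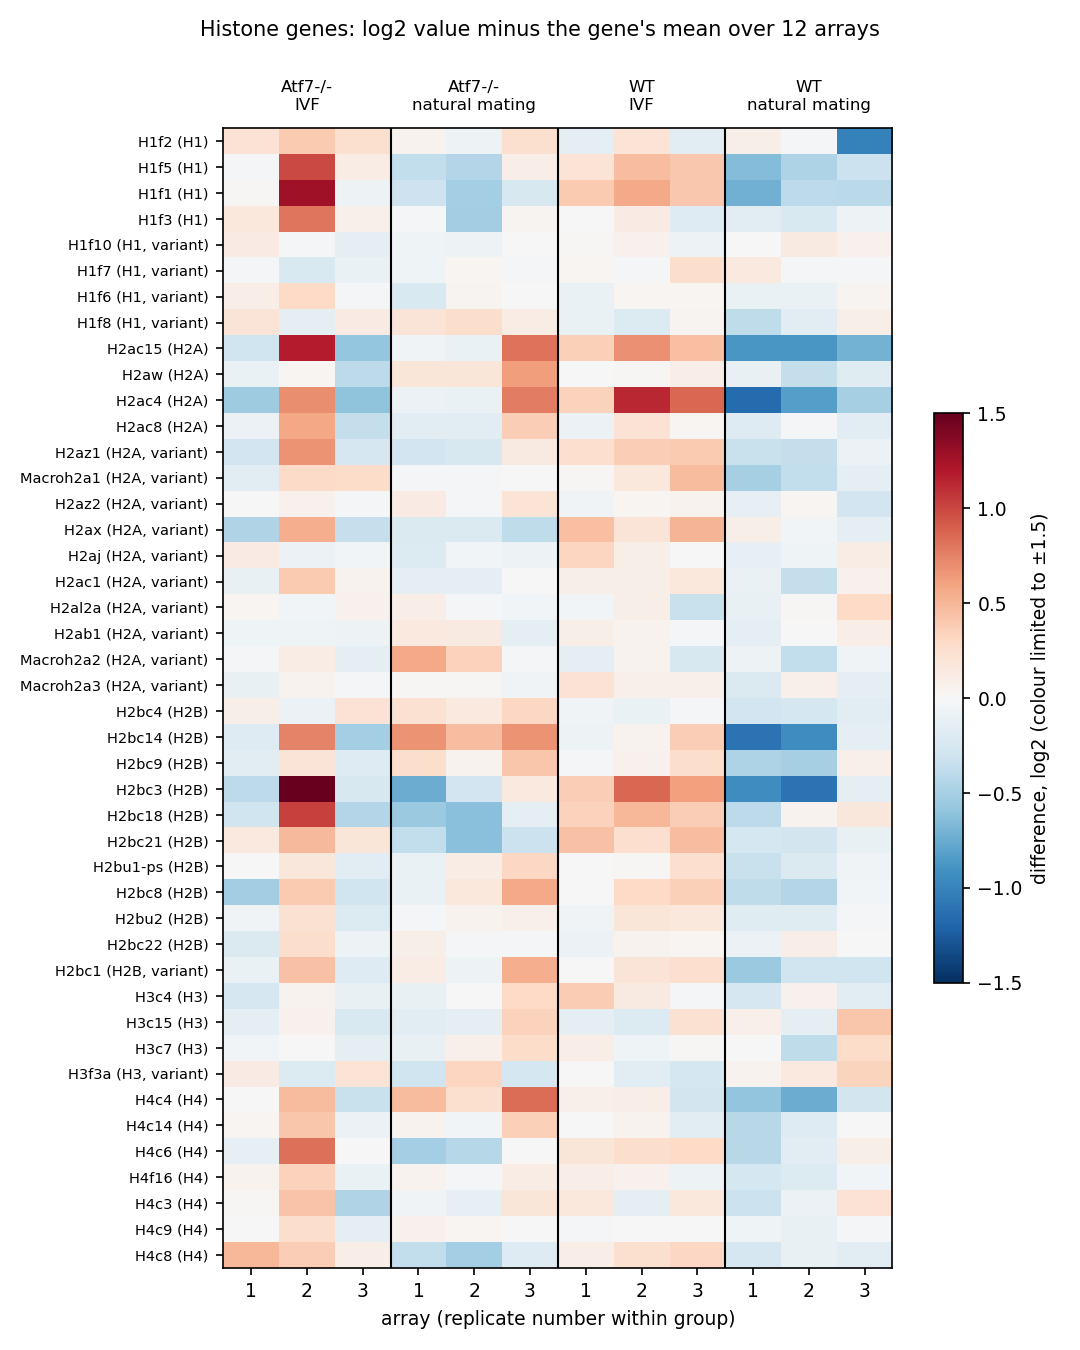
Rows are the 44 histone genes by class and columns are the 12 arrays by group. Colour is the log2 value minus the gene's own mean over all 12 arrays (red above, blue below, limited to 1.5). Atf7-/- IVF replicate 2 holds the highest value of 21 genes. All 3 WT natural-mating arrays are low for H2ac4 and H2ac15, and mainly replicates 1 and 2 for H2bc14 and H2bc3.

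Cell cycle genes were read on the same arrays. A list of 15 S-phase genes averaged 7.02, 8.07 and 7.07 in Atf7-/- IVF, 7.18, 7.17 and 7.41 in Atf7-/- natural mating, 7.54, 7.86 and 7.68 in WT IVF, and 6.81, 7.26 and 7.01 in WT natural mating. A list of 11 mitosis genes averaged 6.48, 8.10 and 6.57 in Atf7-/- IVF, 7.10, 6.80 and 7.88 in Atf7-/- natural mating, 7.77, 7.95 and 7.76 in WT IVF, and 6.63, 6.88 and 6.24 in WT natural mating. Both lists were highest on Atf7-/- IVF replicate 2, and the WT IVF arrays lay above all WT natural-mating arrays. The median of the 28 replication-dependent genes was 7.15 both on Atf7-/- natural-mating replicate 3 and on WT natural-mating replicate 3. The mitosis mean was 7.88 on the former and 6.24 on the latter, the lowest of the 12 arrays. For the 15 replication-dependent genes with a mean signal of at least 7, the median was 8.95 on the former and 8.54 on the latter. The part of the cell cycle genes in the histone values was not tested.

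**Figure D2:**
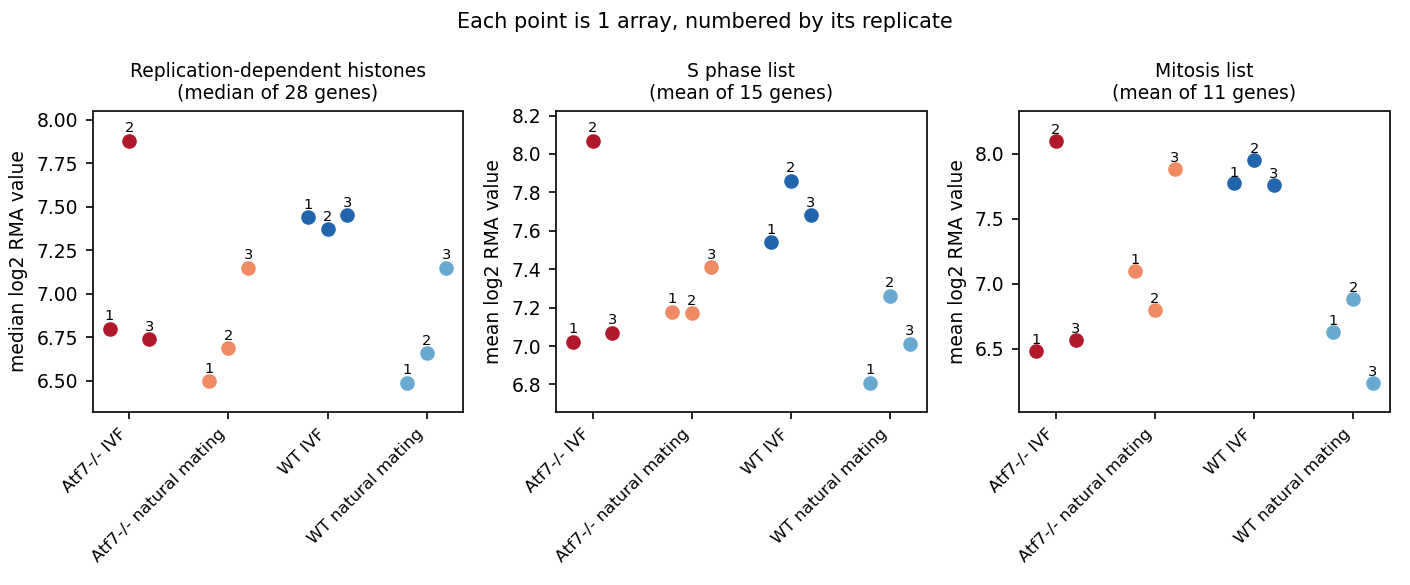
Each point is 1 array, numbered by replicate, with the 4 groups on the horizontal axis and log2 RMA signal on the vertical axis. The left panel gives the median of 28 replication-dependent histone genes, the middle panel the mean of 15 S-phase genes and the right panel the mean of 11 mitosis genes. Atf7-/- IVF replicate 2 is the highest array in all 3 panels, at 7.88, 8.07 and 8.10.

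In WT livers, IVF went with higher signals for most histone genes, but few passed the test. H2ac4, a replication-dependent H2A gene, and H2bc21, an H2B gene classed here with the replication-dependent ones, were called higher (limma, 44 genes). No histone gene was called lower. The class of H2bc21 was not tested in these data. An unadjusted p under 0.05 in either direction was found for 15 of the 44 genes and 24.9% of all probe sets. Over all probe sets, 2.85% were called higher and 1.67% lower. Of the 44 genes, 39 had a log2FC above 0, against 43.9% of all probe sets, and the median log2FC was 0.23 against -0.036. The WT IVF arrays lay wholly above the WT natural-mating arrays for 20 genes and wholly below for 1, H3f3a, against 14% and 15.4% of all probe sets. That H3f3a probe set is dim, with a mean of 4.32. In the same comparison, 6 brighter probe sets that H3f3a or H3f3b shares with another gene had log2FC between -0.22 and 0.47. The replication-dependent genes had a median of 0.29 and the variants of 0.10.

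**Figure D3:**
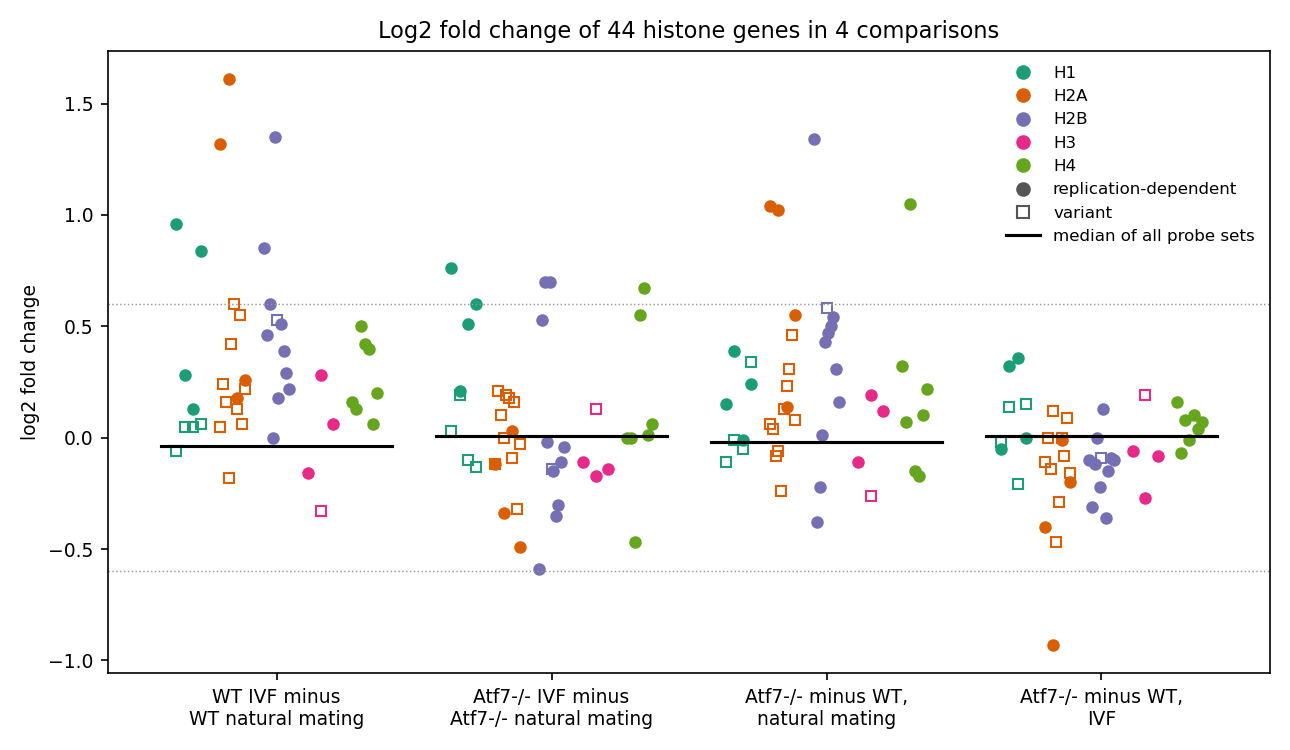
Each point is 1 of 44 histone genes, coloured by class, with replication-dependent genes as filled circles and variants as open squares. The vertical axis is the log2FC in each of 4 comparisons, the black bars are the medians of all probe sets and the dotted lines mark 0.6 up and down. In WT IVF against WT natural mating, 39 of 44 genes lie above 0.

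Linker H1 genes H1f1 and H1f5 were among the larger differences. H1f1 read 8.43, 8.61 and 8.44 in WT IVF, against 7.32, 7.65 and 7.63 in WT natural mating. The groups did not overlap, and the log2FC was 0.96 ± 0.28 (SE, n = 3 each) with an adjusted p of 0.0622 in limma. H1f5 read 8.29, 8.55 and 8.49 in WT IVF, against 7.44, 7.62 and 7.76 in WT natural mating, again without overlap. Its log2FC was 0.84 ± 0.24 with an adjusted p of 0.0542, so neither gene passed the threshold. The brightest H1 probe set, of H1f2, had a log2FC of 0.28 ± 0.24, and WT natural-mating replicate 3 was its lowest array at 8.23. The dimmest replication-dependent one, of H1f3, had a log2FC of 0.13 (95% interval -0.30 to 0.57). The 4 H1 variants, of which H1f6, H1f7 and H1f8 are known from germ cells, had log2FC between -0.06 and 0.06.

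H2A genes gave the largest single difference. H2ac4 read 4.56, 5.35 and 5.08 in WT IVF, against 3.06, 3.39 and 3.72 in WT natural mating. All WT IVF arrays were higher, and the log2FC was 1.61 ± 0.37 (adjusted p = 0.0232). The probe set is dim, with a mean of 4.22 against a median of 6.27 over all probe sets, and it is left out by a filter on dim probe sets. H2ac15 read 9.73, 10.05 and 9.82 in WT IVF, against 8.49, 8.49 and 8.66 in WT natural mating. The gap between these groups exceeded 1 log2 unit, with a log2FC of 1.32 ± 0.39, but the adjusted p was 0.0591. H2aw had a log2FC of 0.26 ± 0.14 and H2ac8, the dimmest H2A probe set, of 0.18 (95% interval -0.30 to 0.65).

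Among H2B genes, H2bc21 read 6.87, 6.68 and 6.90 in WT IVF, against 6.17, 6.16 and 6.32 in WT natural mating. The groups did not overlap, and the log2FC of 0.60 ± 0.12 (adjusted p = 0.0148) lay at the fold threshold. H2bc3 had a larger log2FC, 1.35 ± 0.51, with an adjusted p of 0.127. It read 7.56, 8.05 and 7.81 in WT IVF, against 6.26, 6.08 and 7.04 in WT natural mating, so its controls were widely spread. H2bc14 had a log2FC of 0.85 ± 0.31 (adjusted p = 0.116) and H2bc8 of 0.51 ± 0.24 (adjusted p = 0.212). Of the 10 replication-dependent H2B genes, 7 had WT IVF arrays wholly above the WT natural-mating arrays.

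H4 genes had log2FC between 0.06 and 0.50, none of them called. H4c8 read 6.11, 6.24 and 6.32 in WT IVF, against 5.75, 5.89 and 5.83 in WT natural mating, with a log2FC of 0.40 ± 0.12 and an adjusted p of 0.0621. H4c4 had a log2FC of 0.50 ± 0.22 (adjusted p = 0.188). The 3 replication-dependent H3 genes, H3c4, H3c7 and H3c15, had log2FC between -0.16 and 0.28.

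None of the 16 genes classed here as variants was called, although Macroh2a1 passed the adjusted p. Macroh2a1 encodes macroH2A1, a variant with a large non-histone domain found on the inactive X chromosome. It read 9.70, 9.84 and 10.16 in WT IVF, against 9.18, 9.31 and 9.54 in WT natural mating, a log2FC of 0.55 ± 0.15 (adjusted p = 0.0471) that lay under the fold threshold. H2az1 encodes H2A.Z, a variant of nucleosomes beside promoters, and read 10.43, 10.55 and 10.58 in WT IVF, against 9.85, 9.83 and 10.10 in WT natural mating. Its log2FC was 0.60 ± 0.23 with an adjusted p of 0.129. Its paralogue H2az2 had a log2FC of 0.13 (95% interval -0.09 to 0.35). H2ax, whose product is phosphorylated at DNA breaks, had a log2FC of 0.42 ± 0.22 (adjusted p = 0.261).

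The WT result changed with the processing. H1f1, H1f5 and H2ac15 were called in addition when arrays were centred on their medians, when dim probe sets were filtered out or when only 1-symbol probe sets were tested. Leaving out 1 array at a time gave between 0 and 4 called genes.

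In Atf7-/- livers, IVF went with higher values of the same H2B gene. H2bc21 and the H4 gene H4c8 were called higher and none lower (limma), against 3.27% and 3.51% of all probe sets. An unadjusted p under 0.05 was found for 7 of the 44 genes and 26.0% of all probe sets. Of the 44 genes 21 were above 0, with a median log2FC of 0.00 against 0.006 over all probe sets. The Atf7-/- IVF arrays lay wholly above the Atf7-/- natural-mating arrays for 4 genes (H1f1, H1f3, H2bc21 and H4c8) and wholly below for 1 (H2aw), against 16% and 16.2% of all probe sets.

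H2bc21 read 6.58, 6.92 and 6.61 in Atf7-/- IVF, against 6.07, 5.81 and 6.11 in Atf7-/- natural mating. The log2FC was 0.70 ± 0.12 (adjusted p = 0.00371), with no overlap. H4c8 read 6.50, 6.37 and 6.10 in Atf7-/- IVF, against 5.64, 5.50 and 5.81 in Atf7-/- natural mating, also without overlap. Its log2FC was 0.67 ± 0.12 (adjusted p = 0.00416). Without Atf7-/- IVF replicate 2 the log2FC of H2bc21 was 0.60 (adjusted p = 0.0133) and fell just short of the fold threshold, and that of H4c8 was 0.65 (adjusted p = 0.0169).

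Several larger values rested on Atf7-/- IVF replicate 2. H2bc3 read 6.80, 9.03 and 6.95 in Atf7-/- IVF, against 6.45, 6.90 and 7.34 in Atf7-/- natural mating. Its log2FC was 0.70 ± 0.51 with all arrays and -0.02 without that replicate. H1f1 read 8.06, 9.31 and 7.96 in Atf7-/- IVF, against 7.73, 7.53 and 7.80 in Atf7-/- natural mating, and its log2FC of 0.76 ± 0.28 (adjusted p = 0.114) was 0.32 without it. H1f5, at 0.60 ± 0.24 (adjusted p = 0.133), was 0.29 without it, and H4c6, at 0.55, was 0.25.

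No histone gene was called lower after IVF in this genotype. H2aw read 8.66, 8.79 and 8.36 in Atf7-/- IVF, against 8.94, 8.94 and 9.38 in Atf7-/- natural mating, a log2FC of -0.49 ± 0.14 (adjusted p = 0.0463) under the fold threshold. H2bc14 had a log2FC of -0.59 ± 0.31 (adjusted p = 0.263). Without Atf7-/- IVF replicate 2 it was called lower, at -0.96 (adjusted p = 0.043). The largest variant difference was that of Macroh2a2, -0.32 ± 0.15 (adjusted p = 0.217).

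3 genes, H1f1, H2bc21 and H4c8, had all 6 IVF arrays of both genotypes above all 6 natural-mating arrays, and none had them below. Over all probe sets these shares were 2.68% and 2.44%. This view of both genotypes at once was chosen after the values were seen. H2bc21 spanned 6.58 to 6.92 after IVF and 5.81 to 6.32 after natural mating, and H4c8 spanned 6.10 to 6.50 after IVF and 5.50 to 5.89 after natural mating. H1f1 spanned 7.96 to 9.31 after IVF and 7.32 to 7.80 after natural mating. The difference between the IVF effects, Atf7-/- minus WT, was 0.10 for H2bc21 (95% interval -0.28 to 0.48) and 0.27 for H4c8 (-0.10 to 0.64).

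**Figure D4:**
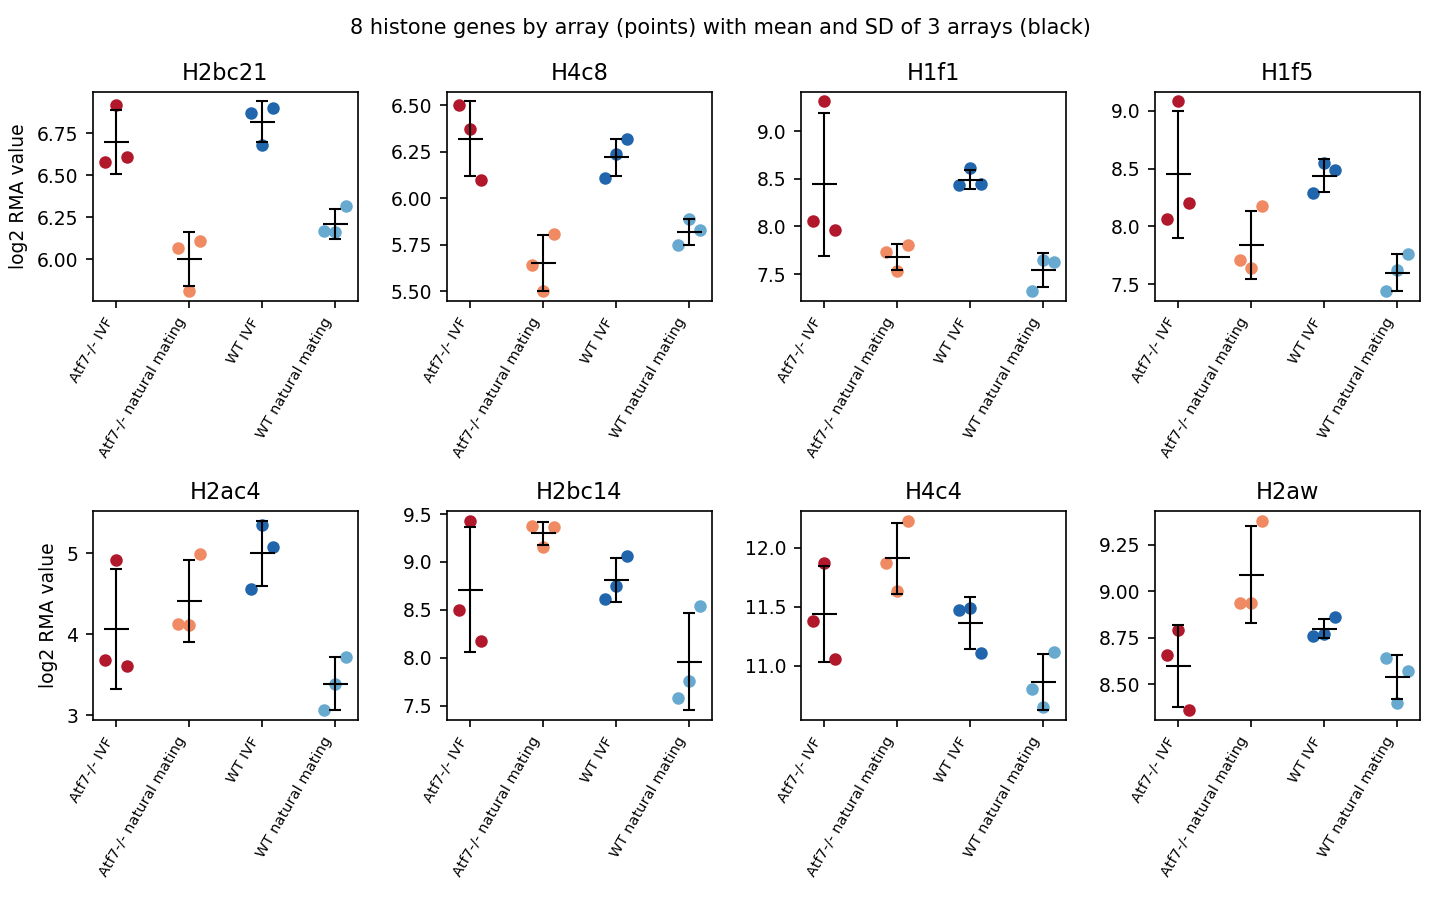
Points are the 3 arrays of each group and black marks give the mean and SD, on the log2 RMA scale, for 8 histone genes with a separate vertical axis for each gene. H2bc21, H4c8 and H1f1 are higher on all 6 IVF arrays than on all 6 natural-mating arrays, while H2bc14 and H4c4 are higher in Atf7-/- natural mating than in WT natural mating.

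Loss of ATF7 was compared in mice of natural mating. Because their mothers had the same genotype, effects of the pup's and the mother's genotype cannot be told apart here. These arrays are also the natural-mating controls of the IVF comparisons above, so the comparisons are not independent. H2bc14 and H4c4 were called higher and no histone gene lower (limma), against 3.83% and 3.67% of all probe sets. An unadjusted p under 0.05 was found for 12 of the 44 genes and 26.6% of all probe sets. Of the 44 genes 31 were above 0, against 46.6% of all probe sets, with a median log2FC of 0.14 against -0.019. The Atf7-/- arrays lay wholly above the WT arrays for 13 genes and wholly below for 3 (H1f10, H2ax and H2bc21), against 15.5% and 16.3% of all probe sets.

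H4c4 read 11.87, 11.63 and 12.23 in Atf7-/- natural mating, against 10.80, 10.65 and 11.12 in WT natural mating. The log2FC was 1.05 ± 0.22 (adjusted p = 0.0094), a difference larger than the spread within either group, and it was called whichever array was left out. H2bc14 read 9.37, 9.16 and 9.36 in Atf7-/- natural mating, against 7.58, 7.76 and 8.54 in WT natural mating. Its log2FC was 1.34 ± 0.31 (adjusted p = 0.0151), with the WT values more spread than the Atf7-/- values. It was called in 2 of the 6 fits that left out 1 array, with adjusted p between 0.00641 and 0.0558.

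H2bc4 read 11.71, 11.62 and 11.79 in Atf7-/- natural mating, against 11.19, 11.21 and 11.31 in WT natural mating. The groups did not overlap, and the log2FC of 0.47 ± 0.094 had an adjusted p of 0.00755 but lay under the fold threshold. H2aw read 8.94, 8.94 and 9.38 in Atf7-/- natural mating, against 8.64, 8.40 and 8.57 in WT natural mating, with a log2FC of 0.55 ± 0.14 (adjusted p = 0.0262), also under it. H2ac15, at 1.04 ± 0.39, and H2ac4, at 1.02 ± 0.37, did not pass the adjusted p (0.106 and 0.0936). Among the variants, H2bc1, a testis H2B, had a log2FC of 0.58 ± 0.19 (adjusted p = 0.0699), and Macroh2a2 of 0.46 ± 0.15 (adjusted p = 0.07). The H1 gene with the largest difference was H1f2, at 0.39 ± 0.24 (adjusted p = 0.344).

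Between the IVF groups, Atf7-/- against WT, no histone gene was called (limma; 1 gene had an unadjusted p under 0.05, against 6.12% of all probe sets). Over all probe sets 0.0% were called higher and 0.00575% lower. The gene was H2ac4, which read 3.68, 4.92 and 3.61 in Atf7-/- IVF, against 4.56, 5.35 and 5.08 in WT IVF, a log2FC of -0.93 ± 0.37 (adjusted p = 0.783). Its groups overlapped through Atf7-/- IVF replicate 2. H2ax had a log2FC of -0.47 (95% interval -0.95 to 0.01). The 2 groups did not overlap for 1 gene in the higher direction (H1f2) and 2 in the lower (H2ab1 and Macroh2a3), against 5.78% and 5.09% of all probe sets.

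**Figure D5:**
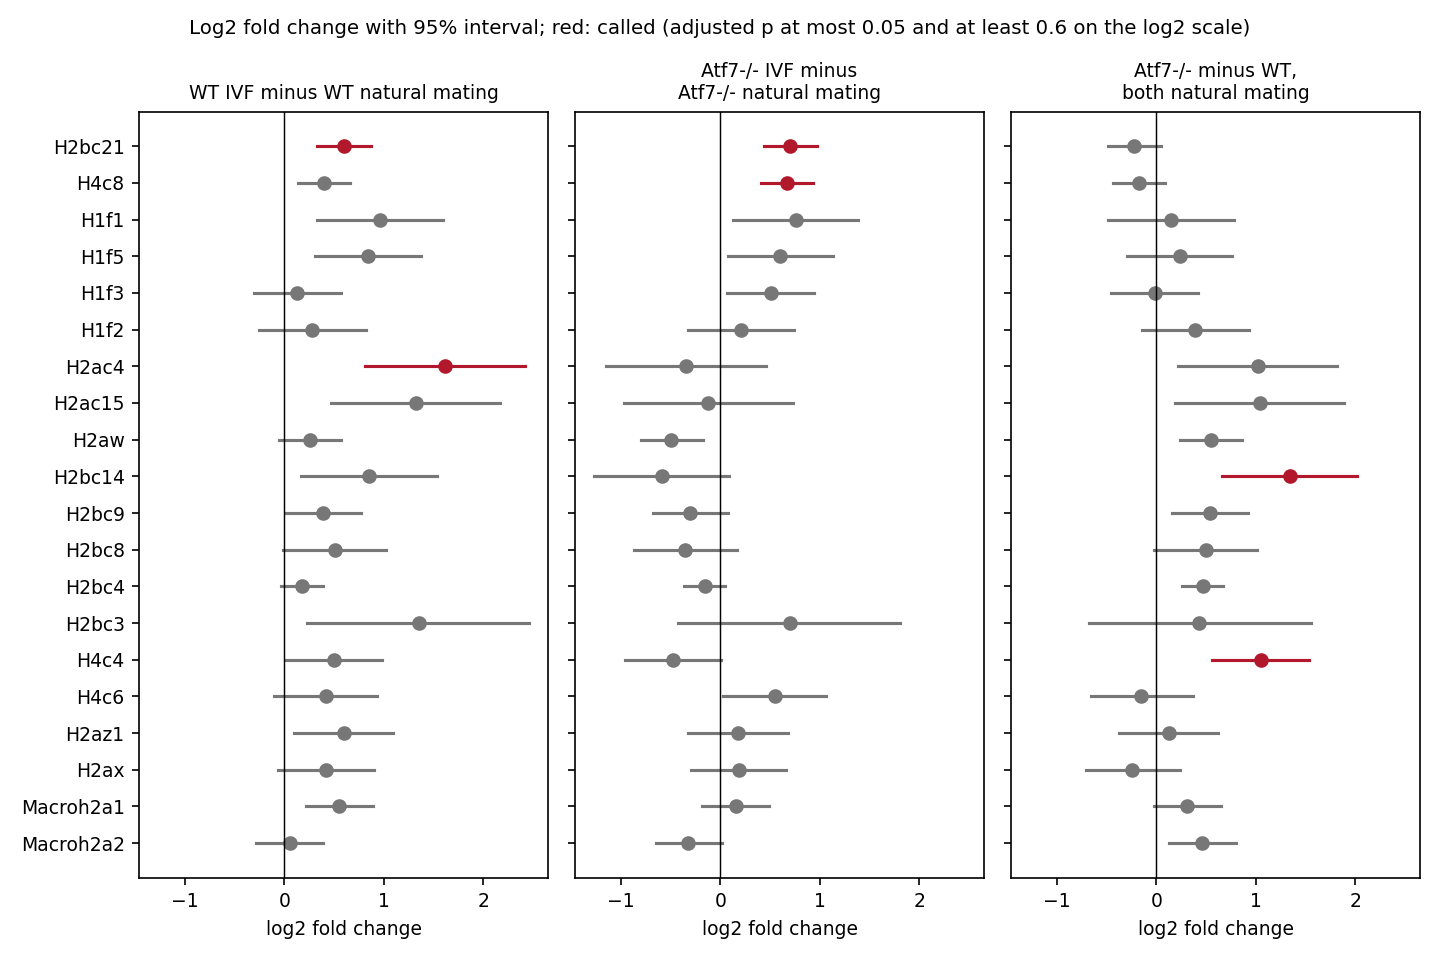
Points are log2FC and bars 95% intervals for 20 histone genes in 3 comparisons, with called genes in red and others in grey. H2ac4 and H2bc21 are called for IVF in WT, H2bc21 and H4c8 for IVF in Atf7-/-, and H2bc14 and H4c4 for Atf7-/- against WT after natural mating.

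The IVF effect differed between the genotypes for 2 histone genes, both lower in Atf7-/- (limma interaction), and for none in the higher direction. Over all probe sets 3.46% were called lower and 2.72% higher, and an unadjusted p under 0.05 was found for 9 of the 44 genes and 22.1% of all probe sets. For H2ac4 the IVF effect in Atf7-/- was -0.34 and that in WT was 1.61, a difference of -1.96 ± 0.52 (adjusted p = 0.0445). For H2aw the effects were -0.49 in Atf7-/- and 0.26 in WT, a difference of -0.75 ± 0.20 (adjusted p = 0.0488). A dimmer probe set shared by H2aw and Trim17 differed by 0.11 ± 0.17 (adjusted p = 0.777). H2bc14, at -1.44 ± 0.44 (adjusted p = 0.0743), and H4c4, at -0.97 ± 0.31 (adjusted p = 0.089), did not pass. The median difference over the 44 genes was -0.19, against 0.032 over all probe sets. Without Atf7-/- IVF replicate 2, 7 genes were called lower, namely H2ac15, H2ac4, H2aw, H2az1, H2bc14, H2bc8 and H4c4. Without WT natural-mating replicate 3, 3 were called lower (H2ac4, H2bc14 and H2bc9), and leaving out any other single array gave 0 or 1.

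Histone genes that share probes were read from 29 probe sets annotated to several genes. In WT IVF against WT natural mating their median log2FC was 0.47, and a probe set covering many H2A genes was called higher (1.54 ± 0.31, adjusted p = 0.0146). In Atf7-/- natural mating against WT natural mating the median was 0.34, and an H2B probe set (1.49 ± 0.40, adjusted p = 0.0313) and an H3 probe set (1.04 ± 0.25, adjusted p = 0.0187) were called higher. In Atf7-/- IVF against Atf7-/- natural mating the median was -0.05, and a probe set of H3f3b with Gm6485 was called lower (-0.63 ± 0.10, adjusted p = 0.00271). Another probe set with the same annotation went the other way and was not called (0.43 ± 0.16, adjusted p = 0.0986). H2ac4, H2ac15 and H2bc14 are among the genes annotated to these H2A and H2B sets. For IVF in Atf7-/-, the H2A set gave 0.87 ± 0.31 (limma, adjusted p = 0.0953), whereas H2ac4 gave -0.34. The H2A set had an interaction value of -0.67 ± 0.44 (adjusted p = 0.413). A probe set shared by H2aw and Trim17 gave 0.31 ± 0.12 for IVF in Atf7-/- and -0.01 ± 0.12 for ATF7 loss after natural mating. Its interaction value was 0.11 ± 0.17, and it was not called. Because clustered histone genes are nearly identical, values for a single copy are uncertain even on probe sets annotated to 1 gene.

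The 2 probe sets of H2az1 ran together. The second, dimmer one read 9.83, 9.91 and 9.84 in WT IVF, against 9.14, 9.27 and 8.92 in WT natural mating. Both were highest on Atf7-/- IVF replicate 2, at 10.86 for the brighter and 10.22 for the dimmer.

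Genes that serve histone production were read from lists. Over all probe sets, 2.85% were called higher for IVF in WT, 3.27% for IVF in Atf7-/- and 3.83% for ATF7 loss after natural mating. The shares called lower were 1.67%, 3.51% and 3.67%. Of 28 measured genes of histone transcription and pre-mRNA processing, 3 were called higher after IVF in WT and none lower. These were Eri1, an exonuclease that trims the stem-loop end (0.96 ± 0.19), and Ncbp1 and Ncbp2, the subunits of the nuclear cap-binding complex (0.76 ± 0.17 and 0.71 ± 0.11). With loss of ATF7 after natural mating, 3 were called higher and none lower. They were Lsm10, a subunit of the U7 particle that directs histone 3′-end cleavage (0.68 ± 0.15), Cpsf3, the endonuclease that makes the cut (0.66 ± 0.094), and Pinx1 (0.73 ± 0.19). The median of the list was 0.16 after IVF in WT and 0.08 with loss of ATF7. Cpsf3 was also called lower in the interaction (-0.67 ± 0.13).

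Of 24 measured histone chaperones, Asf1a, which carries H3 with H4 (0.67 ± 0.11), Rbbp4 (0.66 ± 0.16) and Npm1 (0.68 ± 0.15) were called higher after IVF in WT and none lower. Npm1 was also called higher after IVF in Atf7-/- (0.70 ± 0.15), together with Anp32e, which removes H2A.Z from nucleosomes (0.76 ± 0.11), while Ipo4, an importin of H3 and H4, was called lower (-0.69 ± 0.10). Anp32e was the only chaperone called with loss of ATF7 after natural mating, at -0.68 ± 0.11. Of 16 genes of H2A.Z and macroH2A exchange, Actl6a was called higher after IVF in WT (0.87 ± 0.17). Actl6a (0.66 ± 0.17) and Actr6, a subunit of the SRCAP complex that inserts H2A.Z (0.91 ± 0.16), were called higher with loss of ATF7. The IVF effects on Actl6a and Actr6 were lower in Atf7-/- than in WT, by interaction values of -0.93 ± 0.25 and -0.94 ± 0.22, and that on Ruvbl1, an ATPase of the SRCAP complex, was higher in Atf7-/- (0.69 ± 0.18).

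Among 15 S-phase genes, Pcna, the sliding clamp of DNA replication (1.12 ± 0.27), Rrm1, a subunit of ribonucleotide reductase (1.05 ± 0.29), and Prim1, a primase subunit (1.39 ± 0.39), were called higher after IVF in WT, and the list median was 0.62. None was called in the other comparisons. Of 11 mitosis genes, Bub1, a spindle checkpoint kinase, was called higher after IVF in WT (1.84 ± 0.45). With loss of ATF7 after natural mating, 4 of 7 Kupffer cell markers were called lower and 1 higher, with a list median of -0.92. Their list mean was 8.64 to 8.88 in Atf7-/- natural mating and 8.97 to 9.74 in WT natural mating. None of the 6 measured erythroid markers was called in any comparison. After IVF in WT, 1 each of 6 endothelial, 6 stellate and 5 B and T cell markers was called higher, namely Clec4g (0.75 ± 0.17), Reln (0.79 ± 0.17) and Ms4a1 (0.93 ± 0.19), and the Kupffer marker Cd5l was called lower (-0.74 ± 0.15, list median -0.42). Clec4g was also called higher with loss of ATF7 after natural mating (1.0 ± 0.17). After IVF in Atf7-/-, Ms4a1 (0.71 ± 0.19) and Cd3g (0.74 ± 0.19) were called higher. In the interaction, 2 Kupffer markers were called higher and 1 lower, and Clec4g was called lower (-1.1 ± 0.24). The part of these cell types in the histone values was not tested.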

How the data were processed

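Total RNA of 12 mouse livers was measured on as many Mouse Gene 1.0 ST arrays (Affymetrix). RMA values were made by the authors with affy in R and deposited as log2 signals per probe set, which were taken unchanged. The sources used here do not give program versions or a genome build. Precision is limited by the number of arrays, without use of background probes.

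The rule names histone genes by symbol. Because the platform annotation carries current symbols, older symbols were taken by Entrez identifier from the RefSeq gene table of GRCm38.p6, which gave 9 members by current and 35 by older symbol. Classes, gene lists and members were chosen with earlier results of these data known.

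limma 3.58.1 in R 4.3.3 fitted a mean for each of 4 groups over all 34760 probe sets, with empirical Bayes variances. Calls needed an adjusted p (Benjamini-Hochberg) no higher than 0.05 and a log2FC of 0.6 or more in either direction. The fit was tested on simulated data. Values were summarised in Python 3.11.15 (pandas 2.3.3, numpy 2.4.6, scipy 1.17.1, matplotlib 3.10.9). Named were all called members, the largest log2FC of each class in each comparison, the brightest and dimmest of each class, and up to 4 called genes per list and comparison. Alternatives were other probe-set choices, centring, a filter on dim probe sets, variance settings, thresholds, a replicate block and leaving out each array. Replicate numbers only name arrays and were not used to pair them. Promoters were taken from RefSeq and searched on both strands.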

Additional observations from a re-analysis of the deposited data

Results flagged for a closer look

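For 2 histone genes the effect of IVF differed between Atf7-/- and WT livers in the limma interaction. H2ac4 differed by -1.96 on the log2 scale, with an IVF effect of -0.34 in Atf7-/- and 1.61 in WT. It was called in 3 of 12 fits that left out 1 array, with adjusted p between 0.00874 and 0.104, and its probe set is dim. A shared probe set annotated to H2ac4 and many other H2A genes differed by -0.67 ± 0.44 (adjusted p = 0.413). H2aw differed by -0.75, with an IVF effect of -0.49 in Atf7-/- and 0.26 in WT. It was called in 1 of those 12 fits, with adjusted p between 0.0358 and 0.104. The dimmer probe set shared by H2aw and Trim17 differed by 0.11 ± 0.17 (adjusted p = 0.777).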

How the results depend on the processing

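For IVF in WT the 2 genes called higher became 6 when the fit held only the groups compared, 6 with centred arrays, 5 with 1-symbol probe sets only, 5 with the mean of a symbol's probe sets, 4 (H1f1, H1f5, H2ac15 and H2bc21) with the filter on dim probe sets and 1 at a log2FC of at least 1. That filter left 27 of the genes, with a median of 0.39. Leaving out each array in turn gave 0 to 4. None was called without WT natural-mating replicates 1 or 2 or WT IVF replicate 3, and 1 when WT IVF replicate 1 or 2 was left out. 4 were called without WT natural-mating replicate 3. For IVF in Atf7-/- the count higher was 1 to 2 over the arrays left out and 0 at a log2FC of at least 1, and the count lower was 0 to 1 and 1 with no fold threshold. It was 1 higher without Atf7-/- natural-mating replicate 2, Atf7-/- IVF replicate 1 or Atf7-/- IVF replicate 2. The median was -0.11 to 0.07, and the log2FC of H2bc3, 0.70 with all arrays, was -0.02 to 1.09, the lowest value being that without Atf7-/- IVF replicate 2. For ATF7 loss after natural mating the count higher was 1 to 3 over the arrays left out, with 1 (H4c4) without WT natural-mating replicate 1 or 2, and 4 with no fold threshold. For ATF7 loss after IVF the median was -0.15 to 0.03. For the interaction the count lower was 1 with a replicate block, 4 with the mean of a symbol's probe sets, 1 at a log2FC of at least 1 and 0 to 7 over the arrays left out, with a median between -0.30 and -0.13. It was 0 without any 1 of Atf7-/- natural-mating replicates 1 to 3, Atf7-/- IVF replicates 1 and 3, WT natural-mating replicates 1 and 2 or WT IVF replicates 2 and 3. Apart from the size of the filtered gene set, the cause was not tested. Replicate numbers did not pair the arrays: of 18 correlations of same-numbered deviations 3 were over 0.1, from -0.124 to 0.239, and the block changed no other count of calls. Of the summary values, 190 alternatives stayed close to the value given and 40 did not. With 3 arrays a group and dim probe sets such as that of H2ac4, changes under about the fold threshold may be missed. Larger ones may be missed too in genes that vary widely between arrays. For IVF in WT, H2bc3 had a log2FC of 1.35 ± 0.51 and was not called.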
